A study of Mus musculus with 15 samples.

Results

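The 8 genes described here encode receptors that steer leukocytes from the blood into tissues: the chemokine receptors Cxcr3, Cxcr4, Cxcr5, Cxcr6 and Ccr6, the chemokine-receptor-like gene Ccrl2, and the lipid receptors S1pr4 and Gpr183. They were chosen by symbol from a deposited table of 55536 genes, and all 8 were found and passed the filter on low counts. They were measured by RNA sequencing of whole blood from male C57Bl/6 mice aged 10 months. Of the animals, 8 had mothers that drank tributyltin (TBT), an organotin and agonist of the nuclear receptors RXR and PPAR gamma, until the pups were weaned. The daily dose was 0.5 mg per kg of body weight, from water at 3.07 µM. The other 7 animals were the vehicle group, whose vehicle the labels do not describe. Each library came from 1 animal. The labels give no litters, so p-values measure the spread between these animals only, and animals of the same dam cannot be told apart from others. A liver tumor is marked in 1 animal, vehicle 3, with no tumor status given for the others.

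Most of these proteins are G-protein-coupled receptors that sense a gradient of a chemokine or a lipid and turn it into directed movement. Cxcr4 binds Cxcl12 and holds cells in bone marrow, Cxcr5 binds Cxcl13 and guides B cells and follicular helper T cells into lymphoid follicles, and Cxcr3 binds the interferon-induced chemokines Cxcl9 and Cxcl10 on effector T and NK cells. Cxcr6 binds Cxcl16 and is known on T and natural killer T cells of the liver, and Ccr6 binds Ccl20 on B cells and on T cells that make interleukin 17. Ccrl2 binds chemerin without signalling for migration and presents it to other cells. S1pr4 is a sphingosine 1-phosphate receptor of blood cells, beside others such as S1pr1. Here S1pr1 averaged 72.0 CPM against 18.1 CPM for S1pr4, without division by exon length (3.046 and 2.386 kilobases). Gpr183 senses oxysterols and positions B cells, T cells and dendritic cells in lymphoid tissue.

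In GRCm38, 3 of the genes lie on chromosome 9, Ccrl2 at 111054486 to 111057519, Cxcr5 at 44511787 to 44561877 and Cxcr6 at 123806475 to 123811760. Cxcr6 lies inside the gene Fyco1 and Gpr183 (chromosome 14, 121952551 to 121965195) inside Ubac2, each on the opposite strand, and in both cases 0 exon bases overlapped. The exons of Cxcr5 shared 110 of 3332 bases (3.30%) with Bcl9l on the opposite strand. A RefSeq table (GRCm38.p6) held promoters for 7 of the 8 genes, all but Cxcr5. The 250 bases before the gene start are printed for 4 of them: Cxcr4, Ccr6, S1pr4 and Ccrl2. Per kilobase of exon, Cxcr4 had the highest mean level of the receptors and Ccrl2 the lowest. The levels of Ccr6 and S1pr4 moved together over the animals (Pearson's r = 0.81). The region of Cxcr4 is chr1:128592300-128592549 on the minus strand, that of Ccr6 chr17:8235793-8236042 on the plus strand, that of S1pr4 chr10:81500138-81500387 on the minus strand and that of Ccrl2 chr9:111057519-111057768 on the minus strand. Capitals mark matches to the motifs searched.
Cxcr4: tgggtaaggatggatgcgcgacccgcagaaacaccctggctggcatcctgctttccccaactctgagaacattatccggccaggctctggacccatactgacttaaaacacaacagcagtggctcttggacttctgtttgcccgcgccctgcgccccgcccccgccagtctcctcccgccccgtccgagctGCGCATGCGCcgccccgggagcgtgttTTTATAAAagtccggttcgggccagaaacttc
Ccr6: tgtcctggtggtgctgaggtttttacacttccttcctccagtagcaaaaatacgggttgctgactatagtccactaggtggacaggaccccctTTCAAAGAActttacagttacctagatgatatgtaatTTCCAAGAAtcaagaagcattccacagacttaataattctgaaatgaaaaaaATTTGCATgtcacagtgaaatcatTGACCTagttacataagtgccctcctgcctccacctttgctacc
S1pr4: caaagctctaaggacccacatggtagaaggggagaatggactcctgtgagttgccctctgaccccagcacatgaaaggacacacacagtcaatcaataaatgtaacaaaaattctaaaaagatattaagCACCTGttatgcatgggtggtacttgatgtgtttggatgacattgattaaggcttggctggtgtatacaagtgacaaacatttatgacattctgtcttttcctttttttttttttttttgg
Ccrl2: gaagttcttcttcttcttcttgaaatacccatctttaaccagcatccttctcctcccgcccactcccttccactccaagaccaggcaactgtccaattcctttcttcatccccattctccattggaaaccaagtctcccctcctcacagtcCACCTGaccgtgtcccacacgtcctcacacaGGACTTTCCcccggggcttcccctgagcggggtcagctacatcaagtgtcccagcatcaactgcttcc

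Motifs were searched on both strands of the 250 bases, and the 32851 promoters of the same table were searched in the same way. Cxcr4 held the TATA box TATAAA, 30 to 25 bases before the start, with an overlapping match on the other strand, and the NRF1 motif, GCGCA directly followed by TGCGC, which 12.4% and 0.782% of all promoters held. Ccr6 held the octamer ATTTGCAT (1.6% of all promoters), TTCNNNGAA, the spacing read by STAT factors, in 2 places (7.02%), and the nuclear receptor half-site AGGTCA as its reverse complement (14%). Ccrl2 held the kappa B motif GGACTTTCC (0.283%), 68 to 60 bases before the start. The E box CACCTG stood in Ccrl2, S1pr4 and Cxcr3 and in 17.2% of all promoters. The DR1 element of RXR with PPAR, made of a pair of AGGTCA half-sites with 1 base between them, was matched in 0 of the 7 receptor windows and in 0.0335% of all promoters. The 250 bases of Cxcr6 and of Gpr183 held 0 of the motifs searched. The GC content was 61.2% in Cxcr4 and 32.0% in Gpr183, against a median of 52.4% over all promoters. The motifs were picked with the sequences known, and a match describes letters only.

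The libraries held 6.03 to 11.99 M gene counts, of which haemoglobin transcripts took 28.7% to 50.8%. Levels below are CPM, read counts scaled to a common library size, with sizes adjusted by TMM, a normalization that corrects for a few dominant transcripts. TBT 2 and TBT 8 stood apart, with TMM factors of 0.404 and 0.528 against 0.736 to 1.58 in the other libraries. Their receptor counts were small: Cxcr5 had 170 and 224 reads in them, against 718 to 1276 in the other 6 TBT libraries. Without the TMM scaling, Cxcr5 stood at 20.01 and 22.7 CPM of all counts in TBT 2 and TBT 8, against 49.6 and 43.2 CPM with it. Markers of each blood lineage were read in every library, except the eosinophil and basophil genes Fcer1a, Prg2 and Epx, each at 0 in at least 1 library. In whole blood, fewer cells of a type and less RNA per cell cannot be told apart.

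Per kilobase of exon, the CXC receptors Cxcr4 and Cxcr5 had the highest levels and Ccrl2 the lowest. Over the 15 libraries Cxcr4 averaged 27.3 ± 10.5 CPM per kilobase (SD), Cxcr5 21.6 ± 5.07, Gpr183 12.7 ± 2.45, S1pr4 7.58 ± 1.53, Ccr6 6.24 ± 1.42, Cxcr6 2.59 ± 0.716, Cxcr3 2.38 ± 0.699 and Ccrl2 0.530 ± 0.385. Neighbours in this order were compared within libraries by a two-sided paired sign-flip permutation test on log2 levels, adjusted over the 7 pairs. Cxcr5 lay above Gpr183, Gpr183 above S1pr4, Ccr6 above Cxcr6 and Cxcr3 above Ccrl2 in 15 of 15 libraries, each with an adjusted permutation p of 0.000107, which rests on the smallest p the test can give (6.1e-05). S1pr4 lay above Ccr6 in 13 of 15 libraries by 0.29 log2 units (permutation adjusted p = 0.000769). Cxcr6 and Cxcr3 were not separated (difference 0.13 ± 0.52 log2 units, SD, permutation adjusted p = 0.358).

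Cxcr4 lay above Cxcr5 in 9 of 15 libraries, by 0.29 log2 units (permutation adjusted p = 0.0356). That call was lost when vehicle 3, vehicle 7 or any of animals 1 to 5 of the TBT group was left out (permutation adjusted p from 0.0541 to 0.0712) and without TBT 2, TBT 8 and vehicle 6 together (0.0535). The order of the 8 genes per kilobase stayed the same in each of these runs. In CPM, without division by exon length, the top 2 were reversed, with means of 72.1 for Cxcr5 and 49.4 for Cxcr4.

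**Figure D1:**
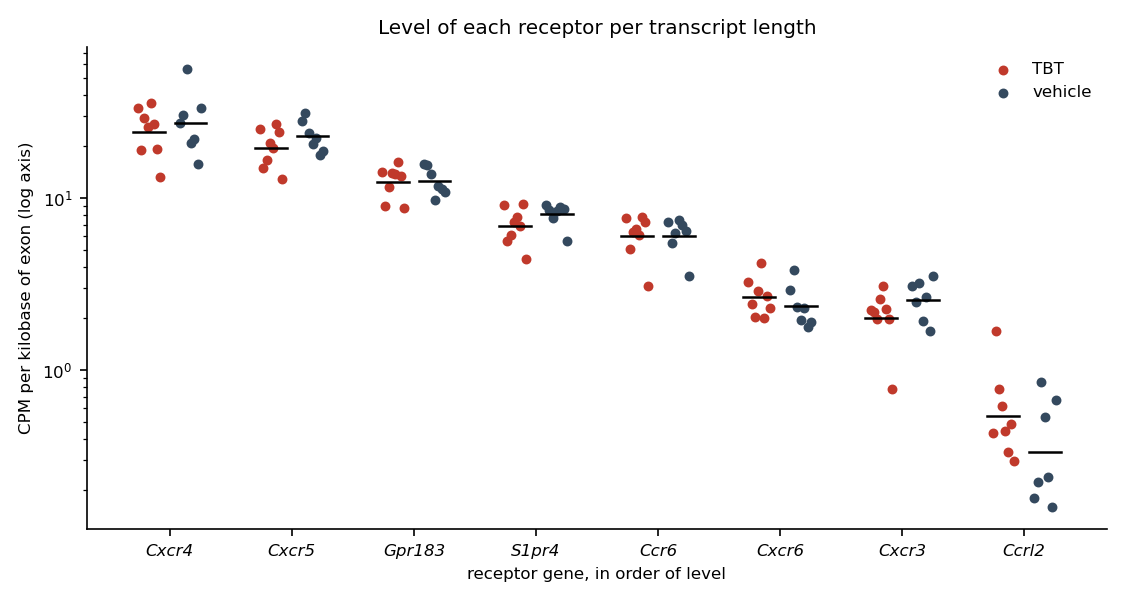
Level of each receptor in CPM per kilobase of exon (log axis) in the 8 TBT and 7 vehicle animals; points are animals and lines geometric means. The genes run from Cxcr4, at a mean of 27.3 over all animals, to Ccrl2, at 0.530, and the groups overlap in each gene.

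The comparison of TBT with vehicle asks whether the transcripts of these receptors still differed in adult offspring of exposed mothers. Of the 8 receptors 0 passed an adjusted p of 0.05 in edgeR, DESeq2 or limma-voom, and 0 had an unadjusted edgeR p under 0.05. Among all 13364 tested genes edgeR called 0 (0%), DESeq2 19 and limma-voom with sample quality weights 19. In edgeR 846 (6.33%) had an unadjusted p under 0.05. Of the receptors, 4 had a positive and 4 a negative log2 fold change (median -0.10), beside 59.4% positive and 40.6% negative over all tested genes (median 0.05). With RLE or upper-quartile scaling, in DESeq2, or with haemoglobin genes left out, 3 of 8 were positive, because the near-zero value of Gpr183 changed sign. Without TBT 2, TBT 8 and vehicle 6, 4 of 8 were positive and the median was 0.01, beside 0.016 over all genes tested in that run. These libraries had the smallest TMM factors (0.404, 0.528 and 0.736). Vehicle 4 followed closely at 0.807, and no cutoff is given for leaving out vehicle 6. The TBT and vehicle ranges overlapped in each of the 8 genes. The share of all tested genes with such an overlap is not given here, so this count only describes the values.

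**Figure D2:**
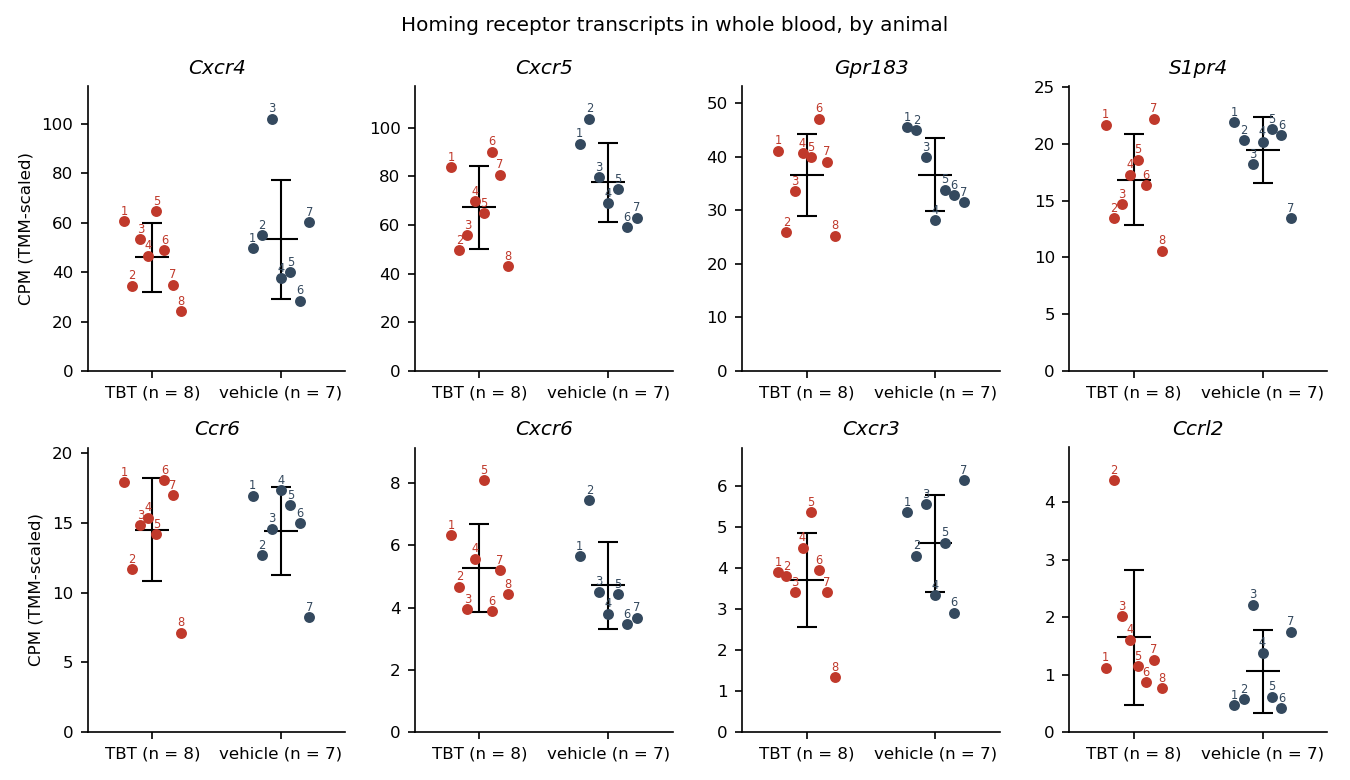
CPM of each receptor on TMM-scaled library sizes in TBT (n = 8) and vehicle (n = 7) animals; numbers are animal numbers of the labels, bars the mean and SD. Vehicle 3 is high for Cxcr4 (102 CPM), TBT 2 for Ccrl2 (4.38 CPM), and TBT 8 is the lowest TBT animal for 7 of the 8 genes, all but Cxcr6.

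Among the CXC receptors, Cxcr5 ran from 43.2 CPM over a median of 67.5 to 90.2 CPM in TBT, against 59.2, 74.7 and 104 CPM in vehicle. The 3 lowest TBT animals, TBT 8, TBT 2 and TBT 3, lay below every vehicle animal, while the other 5 lay within the vehicle range. The 8 TBT animals averaged 67.3 CPM (SD 17) and the 7 vehicle animals 77.6 CPM (SD 16.2), a log2 fold change of -0.20 (SE 0.164, 95% interval -0.56 to 0.15, edgeR adjusted p = 0.920). On all counts, without TMM, the means were 78.9 CPM in TBT and 79.7 CPM in vehicle.

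Cxcr4 ran from 24.1 over a median of 47.8 to 64.6 CPM in TBT, against 28.4, 49.6 and 102 CPM in vehicle. The highest value was that of vehicle 3, with 1471 reads, and the next highest vehicle animal stood at 60.3 CPM. The log2 fold change was -0.21 (SE 0.252, 95% interval -0.75 to 0.33, edgeR adjusted p = 0.964), and it was 0.01 without vehicle 3 and 0.10 in limma-voom with sample weights.

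Cxcr3, at 7 to 80 reads a library, ran from 1.35 over a median of 3.84 to 5.36 CPM in TBT, against 2.91, 4.61 and 6.13 CPM in vehicle. Only 1 of 8 TBT animals lay above the vehicle median, and TBT 8, with 7 reads, was the lowest. Its log2 fold change of -0.29 (SE 0.218, 95% interval -0.76 to 0.18) was the lowest of the 8 receptors and did not pass (edgeR adjusted p = 0.904). Cxcr6 ran from 3.87 over a median of 4.93 to 8.08 CPM in TBT, against 3.46, 4.44 and 7.43 CPM in vehicle. TBT 5 was highest in TBT and vehicle 2 in vehicle, and 6 of 8 TBT animals lay above the vehicle median. Of these, TBT 8, on 23 reads, stood at 4.44 CPM, equal to that median after rounding. The log2 fold change of Cxcr6 was 0.16 (SE 0.197, 95% interval -0.26 to 0.59, edgeR adjusted p = 0.964), 0.03 without TBT 5 and 0.30 without vehicle 2. The gene around Cxcr6, Fyco1, averaged 75.4 CPM (SD 34.6) in the 8 TBT animals and 72.6 CPM (SD 15.2) in the 7 vehicle animals. Its log2 fold change was 0.05 (edgeR adjusted p = 0.994), or -0.27 without TBT 2, TBT 8 and vehicle 6.

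Ccr6 ran from 7.14 over a median of 15.1 to 18.03 CPM in TBT, against 8.23, 14.96 and 17.3 CPM in vehicle. Each group had a single low animal, TBT 8 and vehicle 7, and the rest lay between 11.7 and 18.03 CPM. The log2 fold change was 0.02 (SE 0.176, 95% interval -0.36 to 0.40, edgeR adjusted p = 0.997), and its sign changed when any of 6 animals was left out.

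The atypical receptor Ccrl2 was the least abundant, with 3 to 32 reads a library, so counting error is large in every value. It ran from 0.772 over a median of 1.21 to 4.38 CPM in TBT, against 0.416, 0.621 and 2.22 CPM in vehicle. All 8 TBT animals lay above the vehicle median, yet 3 of 7 vehicle animals, vehicle 3, vehicle 4 and vehicle 7, lay above the TBT median. The log2 fold change of 0.50 (SE 0.422, 95% interval -0.41 to 1.41) was the highest of the 8 and did not pass (edgeR adjusted p = 0.926). The value was 0.24 without TBT 2 and 0.84 without vehicle 3.

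Of the lipid receptors, S1pr4 ran from 10.6 over a median of 16.8 to 22.2 CPM in TBT, against 13.5, 20.3 and 21.9 CPM in vehicle. In vehicle, 6 of 7 animals stood between 18.3 and 21.9 CPM with vehicle 7 below them, and in TBT the values were spread over the whole range. The log2 fold change was -0.20 (SE 0.145, 95% interval -0.51 to 0.12, edgeR adjusted p = 0.901), or -0.07 without TBT 2, TBT 8 and vehicle 6. Gpr183 ran from 25.3 over a median of 39.5 to 47.1 CPM in TBT, against 28.2, 33.9 and 45.5 CPM in vehicle. With TMM the means were almost equal, 36.6 CPM (SD 7.72) over 8 TBT animals and 36.7 CPM (SD 6.84) over 7 vehicle animals. On all counts the Gpr183 means were 42.6 CPM in TBT and 37.7 CPM in vehicle. The log2 fold change of Gpr183 was 0.00 (SE 0.142, 95% interval -0.30 to 0.31, edgeR adjusted p = 0.999), with the sign depending on the scaling and the animals included. Ubac2, which surrounds Gpr183, stood at a log2 fold change of 0.09 (edgeR adjusted p = 0.977).

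**Figure D3:**
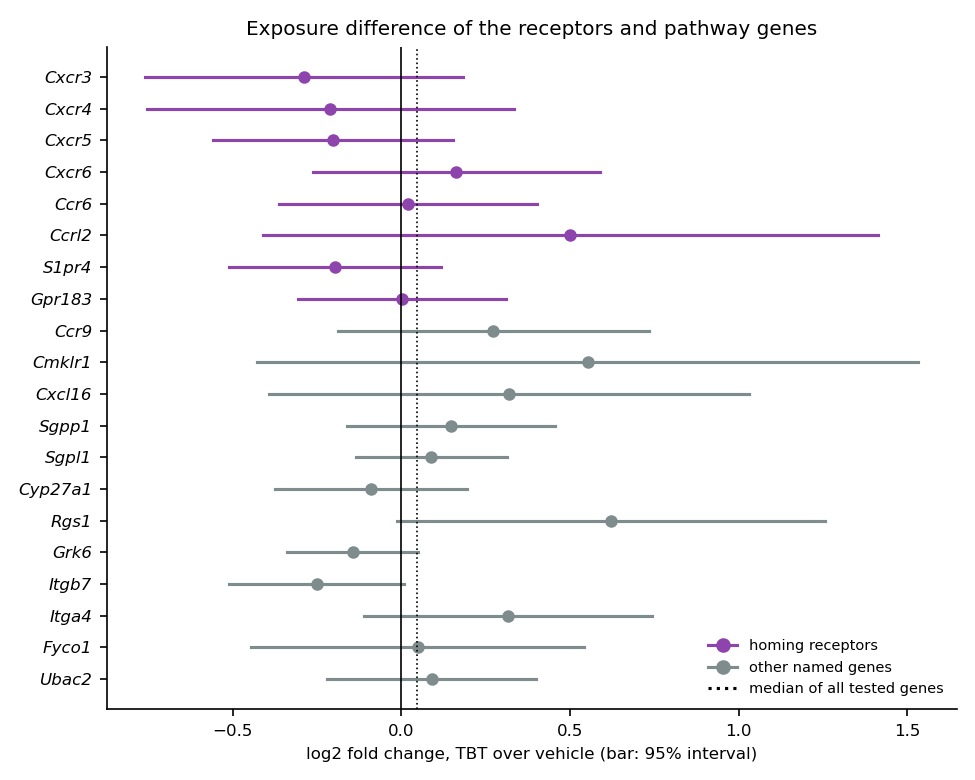
Log2 fold change of TBT over vehicle for the 8 receptors and for other genes of their pathways named by rule, with 95% intervals (edgeR, all libraries). All 8 receptor intervals include 0, those of Gpr183 and Ccr6 are centred within 0.02 of it, and the dotted line marks the median of all tested genes, 0.05. Cxcl13 is left out for its width.

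The wider pathway was described by lists of its other genes, and 0 genes of these lists passed over all genes in edgeR, DESeq2 or limma-voom. Only 1, Rgs1, had an unadjusted edgeR p under 0.05. The directions below stand beside 59.4% positive over all tested genes (median 0.05, or 0.016 without TBT 2, TBT 8 and vehicle 6). Of 19 other chemokine receptors 12 could be tested, 9 with a positive and 3 with a negative log2 fold change (median 0.15), or 7 and 5 without TBT 2, TBT 8 and vehicle 6 (median 0.04). Those with the smallest p were Ccr9, which binds the gut and thymus chemokine Ccl25 (0.27, SE 0.214, edgeR adjusted p = 0.913), and the chemerin receptor Cmklr1 (0.55, SE 0.454, edgeR adjusted p = 0.923). Cmklr1 reached 28.5 CPM in TBT 8, and no other library exceeded 12.5 CPM, and its fold change was 0.08 without TBT 8. Of 8 tested sphingosine 1-phosphate genes 4 were positive (median 0.02). Those with the smallest p were the phosphatase Sgpp1 (0.15) and the lyase Sgpl1 (0.09), both of which break down that lipid (edgeR adjusted p = 0.957 and 0.964). Of 4 enzymes of oxysterol metabolism only Cyp27a1 was tested (-0.09, edgeR adjusted p = 0.975), and Ch25h, Cyp7b1 and Hsd3b7 were too low.

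Signalling and desensitisation genes numbered 17, with 10 positive (median 0.04), or 6 without TBT 2, TBT 8 and vehicle 6 (median -0.07). Rgs1, a regulator that damps G-protein signalling of chemokine receptors, averaged 2.30 CPM (SD 0.627) in the 8 TBT animals and 1.45 CPM (SD 0.791) in the 7 vehicle animals, a log2 fold change of 0.62 (SE 0.294) that did not pass (edgeR adjusted p = 0.780). The receptor kinase Grk6 stood at -0.14 (edgeR adjusted p = 0.871). Of 10 homing adhesion genes 8 were positive (median 0.13), or 4 without those 3 libraries (median -0.04). The integrin genes with the smallest p went in opposite directions: Itgb7, the beta chain of the gut-homing integrin, averaged 45.1 CPM (SD 8.12) in the 8 TBT animals and 53.9 CPM (SD 6.79) in the 7 vehicle animals, a log2 fold change of -0.25, and its partner Itga4 stood at 0.32 (edgeR adjusted p = 0.784 and 0.870).

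Of 9 ligands, only Cxcl16, the ligand of Cxcr6, and Cxcl13, the ligand of Cxcr5, could be tested. Cxcl16 averaged 1.73 CPM (SD 0.750) in the 8 TBT animals and 1.49 CPM (SD 0.705) in the 7 vehicle animals, a log2 fold change of 0.32 (edgeR adjusted p = 0.960). Cxcl13 was at 77.0 CPM in TBT 8, with 399 reads, between 0 and 2.66 CPM in the other 7 TBT animals, and between 0.177 and 7.34 CPM in vehicle. The fitted log2 fold change was 1.44 (SE 1.41, edgeR adjusted p = 0.960), and it turned to -2.20 in DESeq2 and -2.96 in limma-voom with sample weights. It fell below the filter on low counts, and so was not tested, when TBT 6, TBT 7 or TBT 8 was left out.

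The receptors were then set beside scores of 5 blood lineages, each the mean log2 level of the markers of 1 cell type, centred over the libraries. Over the 40 relations of 8 receptors with 5 scores, Pearson's r passed for 2, Cxcr5 and S1pr4 with the B cell score. For Cxcr5 r was 0.80 (permutation p = 0.00029, adjusted 0.0058), with a Spearman's rho of 0.71 (permutation p = 0.00441, adjusted 0.0653). Within TBT r was 0.92 (n = 8) and within vehicle 0.33 (n = 7), and leaving out TBT 2 and TBT 8, whose scores lay farthest from the median, gave 0.62. For S1pr4 r was 0.84 (permutation p = 0.00022, adjusted 0.0058) and rho 0.75 (permutation p = 0.00186, adjusted 0.0653). Its r was 0.83 within TBT (n = 8), 0.86 within vehicle (n = 7) and 0.75 without those 2 libraries. Both Pearson calls held when any 1 library was left out, and both ended without TBT 2, TBT 8 and vehicle 6 (r = 0.70 and 0.75 over 12 libraries, permutation adjusted p = 0.210 and 0.192). No rank correlation passed the adjustment.

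**Figure D4:**
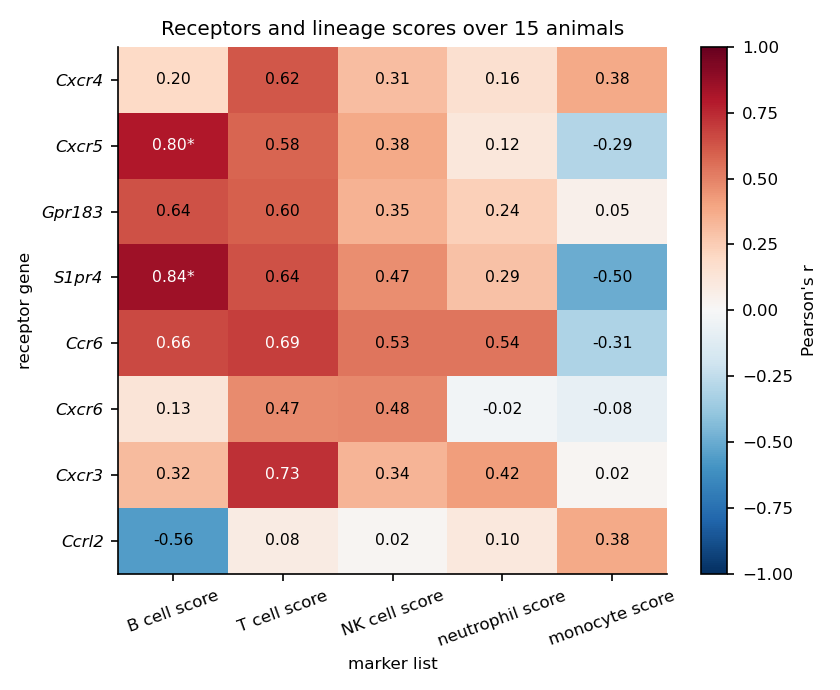
Pearson's r over 15 animals between the log2 level of each receptor (rows, in order of level) and the score of 5 marker lists (columns); an asterisk marks an adjusted permutation p under 0.05. Only Cxcr5 (0.80) and S1pr4 (0.84) with the B cell score carry one.

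Of the 12 B cell markers 11 had a negative log2 fold change (median -0.22), with 0 called by edgeR, DESeq2 or limma-voom and 1, Fcer2a, at an unadjusted p under 0.05. Their summed level ran from 911 over a median of 1502 to 2106 CPM in TBT, against 1346, 1677 and 1942 CPM in vehicle, and all 12 were read in every library. Without TBT 2, TBT 8 and vehicle 6 the count was again 11 of 12, with a median of -0.09. TBT 2 and TBT 8 had the lowest B cell scores (-0.77 and -0.55) and the highest platelet scores (1.67 and 1.43) and erythroid scores (1.78 and 1.10) of the 15 libraries. Of the monocyte markers 11 of 11 were positive (median 0.18), or 8 of 11 without the 3 libraries (median 0.24). Of the erythroid markers 10 of 10 were positive (median 0.29), and 0 of 10 were without the 3 libraries (median -0.48). Over all tested genes 59.4% were positive (median 0.05). Without the 3 libraries the median of all genes was 0.016, and the share positive is not given. With the B cell score subtracted, the log2 difference of TBT from vehicle went from -0.22 to 0.037 for Cxcr5 and from -0.23 to 0.033 for S1pr4. The B cell score itself differed by -0.26, so subtracting it shifts any receptor by that same amount. For both genes it was chosen because its r was the highest in these same libraries. This step was added after seeing the data (exact permutation p = 0.752 and 0.748), and the smaller differences follow from the arithmetic. What lies behind these values was not tested.

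Cxcr3 and Cxcr4 had their highest r with the T cell score (0.73 and 0.62). That of Cxcr3 did not pass (permutation p = 0.0043, adjusted 0.0573, rho 0.44 with permutation p = 0.0993), and r was 0.53 without TBT 1 and TBT 8, the libraries farthest from the median. That of Cxcr4 did not pass either (permutation adjusted p = 0.0764). It was 0.40 without TBT 1 and TBT 8, 0.86 within TBT and 0.34 within vehicle. Over the alternative settings other than single libraries left out, r fell as low as 0.18 for Cxcr3 and 0.15 for Cxcr4. The T cell markers were 8 of 14 positive (median 0.05), with a summed level of 133 to 297 CPM in TBT and 156 to 290 CPM in vehicle, and each was read in every library. For Gpr183 r was 0.64 with the B cell score and 0.60 with the T cell score, and for Ccr6 0.66 and 0.69, and 0 of these 4 relations passed (permutation adjusted p from 0.0586 to 0.0785). Without TBT 2 and TBT 8, r of Gpr183 with the B cell score was 0.24, and it was 0.88 within TBT and 0.11 within vehicle. Without TBT 1 and TBT 8, r of Ccr6 with the T cell score was 0.35, with 0.79 within TBT and 0.49 within vehicle. For Cxcr6 r was 0.48 with the NK cell score and 0.47 with the T cell score, while rho was 0.41 and 0.59, and neither passed (permutation adjusted p of r = 0.187 for both). Without the 2 farthest libraries of each score these values of r were 0.12 for NK cells and 0.51 for T cells. Ccrl2 had its highest r with the monocyte score (0.38, permutation adjusted p = 0.317). Over all 15 libraries only Ccrl2 had a negative r with the B cell score (-0.56, permutation adjusted p = 0.116). Without TBT 2 and TBT 8 its r was -0.50, and those of Cxcr3 and Cxcr4 were negative too (-0.25 and -0.39). Within vehicle r was -0.51 for Ccrl2, -0.55 for Cxcr3 and -0.40 for Cxcr4. The scores and the receptors share libraries and scaling factors, so a common shift of all leukocyte transcripts enters each of these values.

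**Figure D5:**
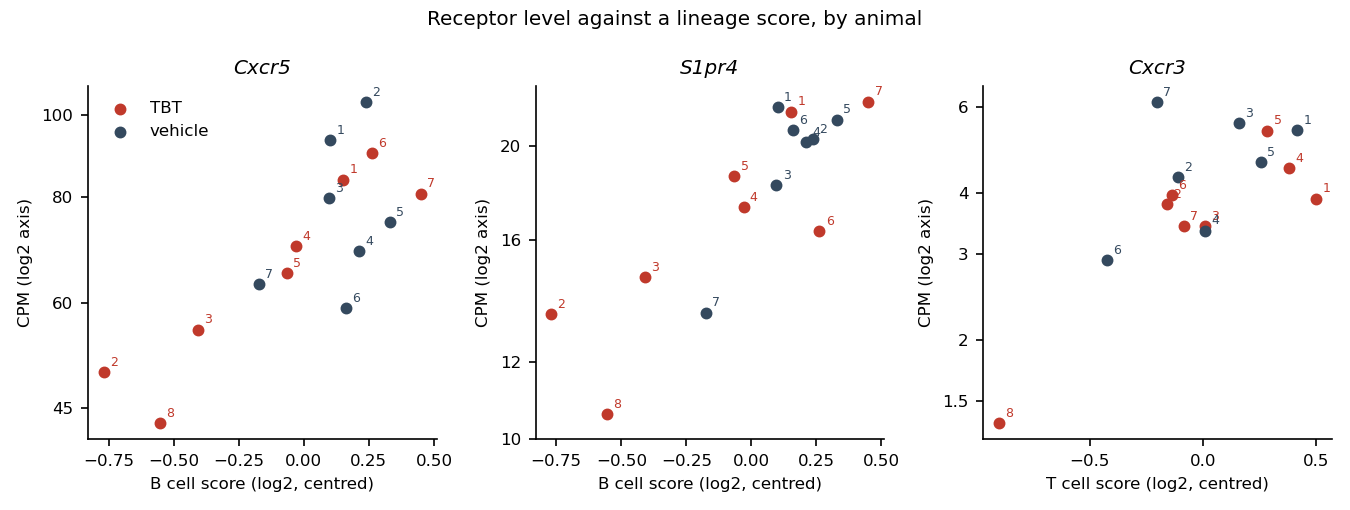
CPM (log2 axis) of Cxcr5 and S1pr4 against the B cell score and of Cxcr3 against the T cell score, 1 point per animal with its number, TBT and vehicle coloured. TBT 2 and TBT 8 sit at the low end of the B cell score, and TBT 8 alone, at 1.35 CPM, extends the range of Cxcr3.

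Among the receptors themselves, the pairs with the highest r over the 15 libraries were Cxcr5 with Gpr183 (0.87), Ccr6 with S1pr4 (0.81) and Cxcr3 with Cxcr4 (0.77). Ccrl2 had a negative r with Gpr183 (-0.36), Cxcr5 (-0.38) and S1pr4 (-0.44). Among 11133 named genes with a mean of at least 1 CPM, the 3 whose log2 levels had the highest r with each receptor were then listed, as a description without a test, since the highest of so many values is high by selection. Cxcr5 was most like Farp2 (0.92), Ccr7, the lymph node homing receptor (0.90), and the lymphoid transcription factor gene Ets1 (0.89). Gpr183 was most like Ccr7 too (0.92), then Lrrk2 and Pgap1 (0.90 each).

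Cxcr4 was most like Cd69, an early activation marker that retains lymphocytes in tissue (0.85), the glycolytic gene Gpi1 (0.84) and the glucocorticoid-induced gene Tsc22d3 (0.84). In vehicle 3, where Cxcr4 peaked, Tsc22d3 stood at 189 CPM, against at most 111 CPM in the other 14 libraries, while Cd69, at 62.4 CPM, stayed below its highest value of 72.5 CPM, in a TBT library. S1pr4 was most like the Polycomb gene Cbx7 (0.93), the histone deacetylase gene Hdac7 (0.93) and Bcl9l (0.92), and Ccr6 like Elac2, Dffb and Rif1 (0.92 each). Cxcr3 was most like Enc1 (0.89), Sfpq and Mau2 (0.88 each), and Ccrl2 like Vti1b (0.83), Prdx1 and Snx4 (0.81 each). Vti1b, Prdx1 and Snx4 were highest in TBT 2 (16.1, 45.8 and 33.0 CPM), where Ccrl2 peaked on 15 reads. Prdx1 was almost as high in TBT 3 (45.7 CPM). How far r of these genes with Ccrl2 rests on TBT 2 was not tested. With RLE scaling Sfpq and Mau2 fell to ranks 22 and 25 for Cxcr3 (r = 0.83 and 0.82), while Enc1 stayed first. The genes listed for Cxcr6 included Mpp7 (0.76) and Utp4 (0.74).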

How the data were processed

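RNA of whole blood was made into libraries with a stranded total RNA kit, per the labels' protocols. The submitters' processing notes name Trim Galore, HISAT2, featureCounts and the build mm10, without versions or a strand setting. The authors deposited raw, whole-number counts for each gene, taken here without change; the strand of overlapping genes may not have been kept apart. All 55536 gene identifiers matched GENCODE M21 (GRCm38), the source of coordinates and exon lengths.

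Genes were kept by filterByExpr (13364) and compared with edgeR 4.0.16 in R 4.3.3: TMM, robust quasi-likelihood F tests, no covariate, Benjamini-Hochberg over all tested genes at 0.05. Standard errors come from the F statistic and 95% intervals use 13 residual degrees of freedom. The fit was tested on simulated data. Correlations and scores used log2 CPM with a prior count of 2, markers being those of the cell type lists without the receptors. The permutation p of correlations rests on 100000 resamples, and the exact permutation tests on 6435 splits of the animals. The sign-flip test of neighbouring levels went through every combination of signs. In the 5 lineage scores used, the largest gap between neighbouring libraries was 0.342 of the range. No pair of libraries of a group agreed within sampling noise (lowest mean chi-square 11.1 per gene over 49 pairs). DESeq2 1.42.0 and limma 3.58.1 were alternatives.

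The receptors, gene lists and tests were chosen with earlier results of these data known. Named genes were the 8 receptors, the 2 tested genes with the smallest p of each pathway list, Fyco1 and Ubac2, and the 3 genes most like each receptor, of which 1 is not reported here; Tsc22d3 and Cd69 in vehicle 3 were looked at after their values were seen.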

Additional observations from a re-analysis of the deposited data

Results flagged for a closer look

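Ccrl2 stood at 4.38 CPM in TBT 2, far above the next TBT animal (2.02 CPM), and this gap is larger than an outlier test at the 95% level allows in a group of 8. The value rests on 15 reads in a library with a small TMM factor (0.404), and on all counts it was 1.77 CPM, below TBT 3 (2.17 CPM). The test was made in 16 groups (8 receptors, each in TBT and in vehicle), and chance alone flags about 1 in 20. Just under the critical value were the gaps of Cxcr4 in vehicle 3 (0.567 of the group's range), S1pr4 in vehicle 7 (0.564) and Cxcr3 in TBT 8 (0.516).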

How the results depend on the processing

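Over all tested genes edgeR called 0 with all libraries, and with any single library left out (0 to 0). It called 2 without the filter on low counts, 7 without TBT 2, TBT 8 and vehicle 6, and 1 with the animal number as a replicate block, while DESeq2 called 19 and limma-voom with sample quality weights 19. No receptor was called in any of these runs. The shared numbers did not pair the animals: correlations of same-numbered deviations ran from -0.23 to 0.51, and 2 of 14 animals correlated best with their own number. The log2 fold change of Cxcr4 turned positive in limma-voom (0.10) and ran from -0.32 to 0.012 with single libraries left out. That of Ccr6 ran from -0.075 to 0.097, that of Gpr183 from -0.073 to 0.061 and that of Fyco1 from -0.14 to 0.13 with single libraries left out. Gpr183 stood at -0.0060 with RLE, -0.018 with upper-quartile scaling, -0.0028 in DESeq2 and -0.015 without haemoglobin genes. Cxcl13, not testable without TBT 6, TBT 7 or TBT 8, was -2.20 in DESeq2, -2.96 in limma-voom and -2.50 with the block, and Fyco1 -0.29 in limma-voom, -0.15 with the block and -0.27 without the 3 libraries. Relative to the B cell score, which differed by -0.26 itself, Cxcr5 stood at 0.037 and S1pr4 at 0.033. Relations with lineage scores past the threshold numbered 2, 2 to 8 with single libraries left out (8 without vehicle 2, 6 without vehicle 6, 5 without vehicle 4 or TBT 6), and 0 without the 3 libraries, which also leaves fewer animals. Neighbouring pairs that differed in level numbered 6, and 5 or 6 elsewhere. The cause of these changes was not tested. Depth limits Ccrl2, Cxcr3 and Cxcr6 most.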

Other observations

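Subtracting the score of the lineage with the highest r from each receptor, a step added after seeing the data, left 0 of 8 differences past an exact permutation test with adjustment over the 8 genes. Gpr183 less the B cell score averaged 0.11 (SD 0.21) in the 8 TBT animals and -0.13 (SD 0.30) in the 7 vehicle animals, a difference of 0.25 log2 units (exact permutation p = 0.0808, adjusted 0.323). Before the subtraction that difference was -0.01, and the B cell score itself differed by -0.26. Cxcr3 less the T cell score averaged -0.14 (SD 0.27) in the 8 TBT animals and 0.16 (SD 0.34) in the 7 vehicle animals, a difference of -0.30, against -0.33 before the subtraction (exact permutation p = 0.0733, adjusted 0.323). For the other 6 receptors the exact permutation p ran from 0.341 to 0.894.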
